A study of Homo sapiens with 6 samples.

Results

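This report describes 9 genes of the tight junction in human ovarian cancer cells: the claudins CLDN1, CLDN3, CLDN4, CLDN6, CLDN7, CLDN10 and CLDN16, with occludin (OCLN) and the scaffold gene TJP1. They were taken by gene name from the deposited table of 23145 usable genes, and all 9 were found. All 9 had values in each of the 6 libraries. Of the 9, 8 passed the filter for testing, an average of 1 FPKM or more across all libraries, and CLDN10 did not. FPKM stands for fragments scaled by transcript length and by library size, so levels can be set side by side between genes.

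Tight junctions seal the gap between neighbouring epithelial cells. Claudins are small membrane proteins that span the membrane several times and pair across that gap. Some claudins form a barrier and others form pores selective for ions, so the mixture a cell makes sets what passes between cells. Occludin sits in the same strands, and TJP1 encodes ZO-1, which anchors claudins and occludin to actin. CLDN3 and CLDN4 are receptors for the enterotoxin of Clostridium perfringens and are known for high levels in many ovarian carcinomas.

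RNA sequencing was done on 6 cultures of the ovarian cancer lines A2780 and OVCAR3, with 1 library per construct. The COL11A1-low group comprised A2780 with scrambled shRNA, A2780 with COL11A1 knocked down by shRNA (A2780-shCOL11A1) and OVCAR3 transfected with GFP (OVCAR3-GFP). The COL11A1-high group comprised A2780CIS, a derivative selected for resistance by long exposure to cisplatin, and A2780 and OVCAR3 transfected with COL11A1 (A2780-COL11A1, OVCAR3-COL11A1). COL11A1 encodes a chain of the fibrillar collagen type XI, and the series asked which mRNAs go with its level. All cultures were grown in RPMI medium with fetal bovine serum. The cultures of a line are not replicates, so a single value has no error. They carry different constructs, except A2780CIS, which is labelled with high endogenous levels of COL11A1 and no construct. A2780CIS differs from the others in its drug history as well as in COL11A1. COL11A1 was at 4.23, 0.670, 297, 8.17, 0.0258 and 1.67 FPKM in A2780-scrambled shRNA, A2780-shCOL11A1, A2780CIS, A2780-COL11A1, OVCAR3-GFP and OVCAR3-COL11A1.

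Estimated depth ran from 0.501 in OVCAR3-COL11A1 to 1.58 in A2780-COL11A1, relative to A2780-scrambled shRNA at 1. The labelled cell type was checked on 9 ovarian carcinoma and epithelial markers. None was under 1 FPKM in either OVCAR3 library, whereas 6 to 8 were under 1 FPKM in each A2780 library, and KRT7 and WT1 were listed at the table's lowest value of 0.001 in all 4. Endothelial markers stayed under 1 FPKM in every library, and the 3 leukocyte markers summed to between 0.290 and 3.77 FPKM, most of it CD68. In whole cultures, fewer cells with a transcript and less of it per cell cannot be told apart.

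The promoter windows of 4 claudins are shown because these genes carry the largest differences between the OVCAR3 libraries described further on: CLDN4, CLDN3 and CLDN7, which were lower with COL11A1, and CLDN1, which was higher. Each window holds 250 bases before and 50 bases from the annotated start of transcription, 5′ to 3′ on the strand of the gene, from RefSeq on GRCh38.p14. They lie at chr7:73830746-73831045 (CLDN4, plus strand), chr7:73770221-73770520 (CLDN3, minus strand), chr17:7262429-7262728 (CLDN7, minus strand, its start number 2 of 2) and chr3:190322397-190322696 (CLDN1, minus strand). Capitals mark 3 kinds of letters searched on both strands: CAGGTG, an E-box of the kind bound by the repressors SNAI1, SNAI2 and ZEB1; GGGCGG, a GC box of the SP1 kind; and TGANTCA, a site of the AP-1 kind.
CLDN4: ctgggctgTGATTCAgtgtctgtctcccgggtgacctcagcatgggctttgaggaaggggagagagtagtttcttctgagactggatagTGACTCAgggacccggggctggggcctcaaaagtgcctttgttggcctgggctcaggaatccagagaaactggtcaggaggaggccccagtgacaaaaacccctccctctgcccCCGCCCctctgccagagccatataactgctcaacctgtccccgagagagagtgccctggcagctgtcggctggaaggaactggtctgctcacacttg
CLDN3: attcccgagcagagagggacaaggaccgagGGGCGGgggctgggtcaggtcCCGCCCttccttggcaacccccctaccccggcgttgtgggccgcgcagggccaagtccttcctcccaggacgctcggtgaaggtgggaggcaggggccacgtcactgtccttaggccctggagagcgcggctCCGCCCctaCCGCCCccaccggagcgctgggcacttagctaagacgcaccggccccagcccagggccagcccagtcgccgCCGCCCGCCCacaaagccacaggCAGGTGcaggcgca
CLDN7: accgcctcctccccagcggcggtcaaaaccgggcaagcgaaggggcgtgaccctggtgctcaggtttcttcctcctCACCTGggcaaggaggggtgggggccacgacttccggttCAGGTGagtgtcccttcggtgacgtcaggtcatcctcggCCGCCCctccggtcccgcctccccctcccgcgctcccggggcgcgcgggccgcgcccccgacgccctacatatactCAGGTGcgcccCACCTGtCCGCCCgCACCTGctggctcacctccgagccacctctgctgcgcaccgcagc
CLDN1: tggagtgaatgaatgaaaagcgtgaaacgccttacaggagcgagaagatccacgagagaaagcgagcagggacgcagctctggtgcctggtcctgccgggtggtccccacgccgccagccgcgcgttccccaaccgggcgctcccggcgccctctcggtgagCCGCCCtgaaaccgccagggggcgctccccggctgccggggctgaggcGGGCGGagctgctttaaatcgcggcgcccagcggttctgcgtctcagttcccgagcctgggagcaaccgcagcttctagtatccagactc

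The 9 members matched 16 RefSeq windows, since several have more than 1 start. CAGGTG was found in 7 of the 16, against 20.6% of all 35116 promoter windows of the same length. The second CLDN7 window held 5 matches, the most of any member, and 0.635% of all windows held 3 or more. The other CLDN7 window, at start number 1, held no match to any of the motifs. Levels per gene do not tell which start was used. The CLDN3 window held 1 match and 6 GC boxes, and the CLDN4 and CLDN1 windows held no CAGGTG. The CLDN4 window held 2 AP-1 matches, and 7.71% of all windows held at least 1. GC boxes were in 11 of the 16 windows, against 45% of all windows. No match of one motif overlapped a match of another, and a match is a description of letters, not of binding.

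**Figure D1:**
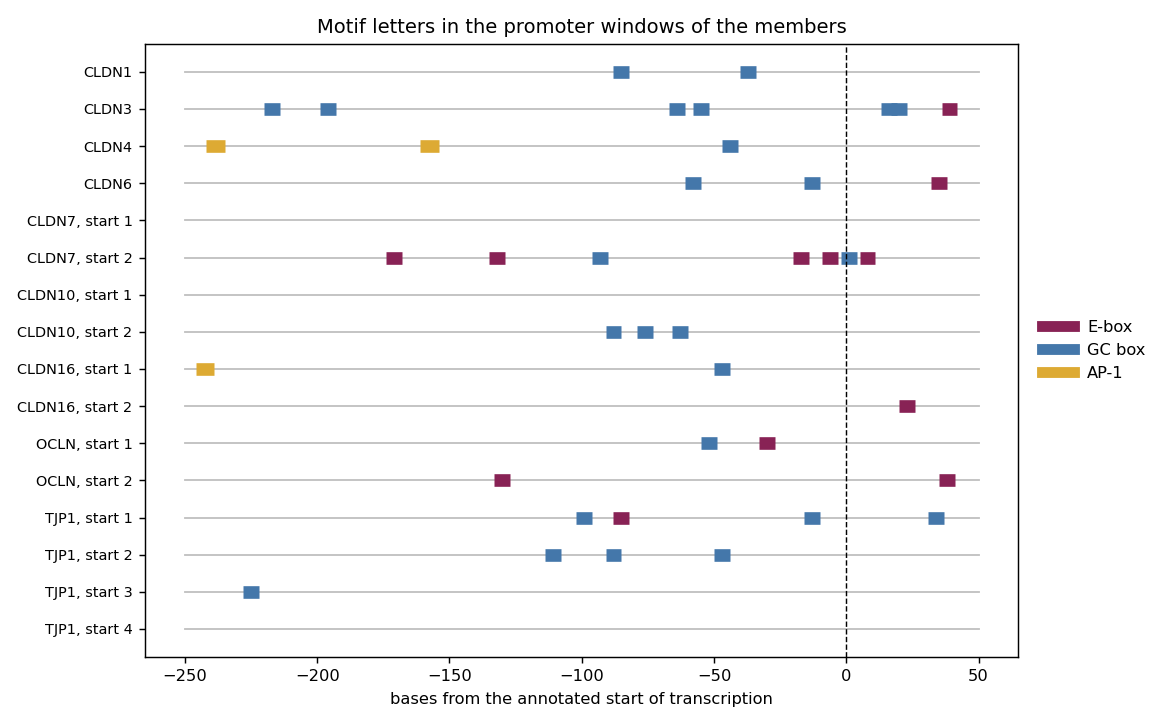
Matches to 3 motifs in the 16 RefSeq promoter windows of the 9 members, by distance in bases from the annotated start (dashed line at 0). Each grey line is a window and each block a match on either strand; the second CLDN7 window carries 5 E-box matches, and the CLDN4 window carries 2 AP-1 matches and no E-box.

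CLDN4 and CLDN3 had the largest drops of the 9 members between OVCAR3-GFP and OVCAR3-COL11A1, and both were at or near the floor of the table in A2780. CLDN4 (chromosome 7, 73245192 to 73247015, GRCh37) was at 228 FPKM in OVCAR3-GFP and 8.84 FPKM in OVCAR3-COL11A1. In A2780-scrambled shRNA, A2780-shCOL11A1, A2780CIS and A2780-COL11A1 it was at 0.0844, 0.144, 0.226 and 0.320 FPKM. OVCAR3-GFP therefore stood 25.8 times above OVCAR3-COL11A1, and every A2780 library lay below both. From the steps between low values, the OVCAR3 levels rest on about 6177 and 105 reads, and those of A2780 on 2, 3, 4 and 12 reads.

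CLDN3 (chromosome 7, 73183326 to 73184600) lies 60.6 kb from CLDN4. It was at 34.3 FPKM in OVCAR3-GFP and 3.69 FPKM in OVCAR3-COL11A1, a ratio of 9.28. It was listed at 0.001 in all 4 A2780 libraries, so no fold against them is given.

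CLDN7 (chromosome 17, 7163221 to 7166512), a claudin that binds the adhesion protein EPCAM, was at 60.1 FPKM in OVCAR3-GFP and 14.9 FPKM in OVCAR3-COL11A1, a ratio of 4.03. The A2780 libraries held 1.93 FPKM with scrambled shRNA, 1.51 with shCOL11A1, 0.436 in A2780CIS and 2.28 with COL11A1. A2780CIS was the lowest of the 6 libraries for CLDN7. The locus overlaps ELP5, a subunit of the Elongator complex at 9.0 and 11 FPKM in OVCAR3-GFP and OVCAR3-COL11A1, and reads of the overlap could be assigned to either gene.

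CLDN1 and CLDN16 went the other way in OVCAR3. CLDN1 (chromosome 3, 190023489 to 190040235), a barrier-forming claudin needed for the skin's water barrier in mouse, was at 40.4 FPKM in OVCAR3-GFP and 114 FPKM in OVCAR3-COL11A1, a ratio of 2.83. It was listed at 0.001 in A2780-scrambled shRNA and A2780-shCOL11A1, and reached 0.987 FPKM in A2780CIS and 0.0532 FPKM with COL11A1. In both lines the COL11A1-high libraries were above the COL11A1-low ones.

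CLDN16 (chromosome 3, 190105660 to 190129932), known for magnesium reabsorption in the kidney, lies 65.4 kb from CLDN1. It was at 39.9 FPKM in OVCAR3-GFP and 85.2 FPKM in OVCAR3-COL11A1, a ratio of 2.13. In A2780 it was at 0.0342, 0.0127, 0.388 and 0.00128 FPKM in the scrambled shRNA, shCOL11A1, A2780CIS and COL11A1 libraries. The groups overlapped within A2780, where A2780CIS was the highest library and A2780-COL11A1 the lowest.

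CLDN6 (chromosome 16, 3064712 to 3068188), a claudin of embryonic epithelia that returns in some tumours, was present in both lines. It was at 4.54 FPKM with scrambled shRNA, 3.80 with shCOL11A1, 0.157 in A2780CIS and 1.68 with COL11A1. In OVCAR3 it was at 14 FPKM with GFP and 8.76 with COL11A1. The COL11A1-high libraries lay below the COL11A1-low ones within each line, and A2780CIS, at about 4 reads, was the lowest.

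CLDN10 (chromosome 13, 96085852 to 96232010), a claudin whose isoforms form ion pores, was at 2.90 FPKM in OVCAR3-GFP and 2.45 in OVCAR3-COL11A1, about 111 and 41 reads. It did not exceed 0.0680 FPKM in any A2780 library and was listed at 0.001 in A2780CIS. Its locus overlaps DZIP1 and the antisense gene CLDN10-AS1, the latter listed at 0.001 in both OVCAR3 libraries.

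OCLN and TJP1 were close to level over the libraries. OCLN (chromosome 5, 68788118 to 68853931) was at 11.9, 13.9, 13.1 and 10.7 FPKM in A2780 with scrambled shRNA, A2780 with shCOL11A1, A2780CIS and A2780-COL11A1, and at 22.8 and 13.3 FPKM in OVCAR3-GFP and OVCAR3-COL11A1. Only OVCAR3-GFP stood apart, at 1.71 times OVCAR3-COL11A1. RefSeq lists a pseudogene of OCLN, OCLNP1, whose reads could be counted with it.

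TJP1 (chromosome 15, 29992356 to 30114706) was at 27.5, 30.9, 30.9 and 35.2 FPKM in the same 4 A2780 libraries and at 26.8 and 25.4 FPKM in OVCAR3-GFP and OVCAR3-COL11A1. All 6 libraries lay within this range, and the groups overlapped.

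**Figure D2:**
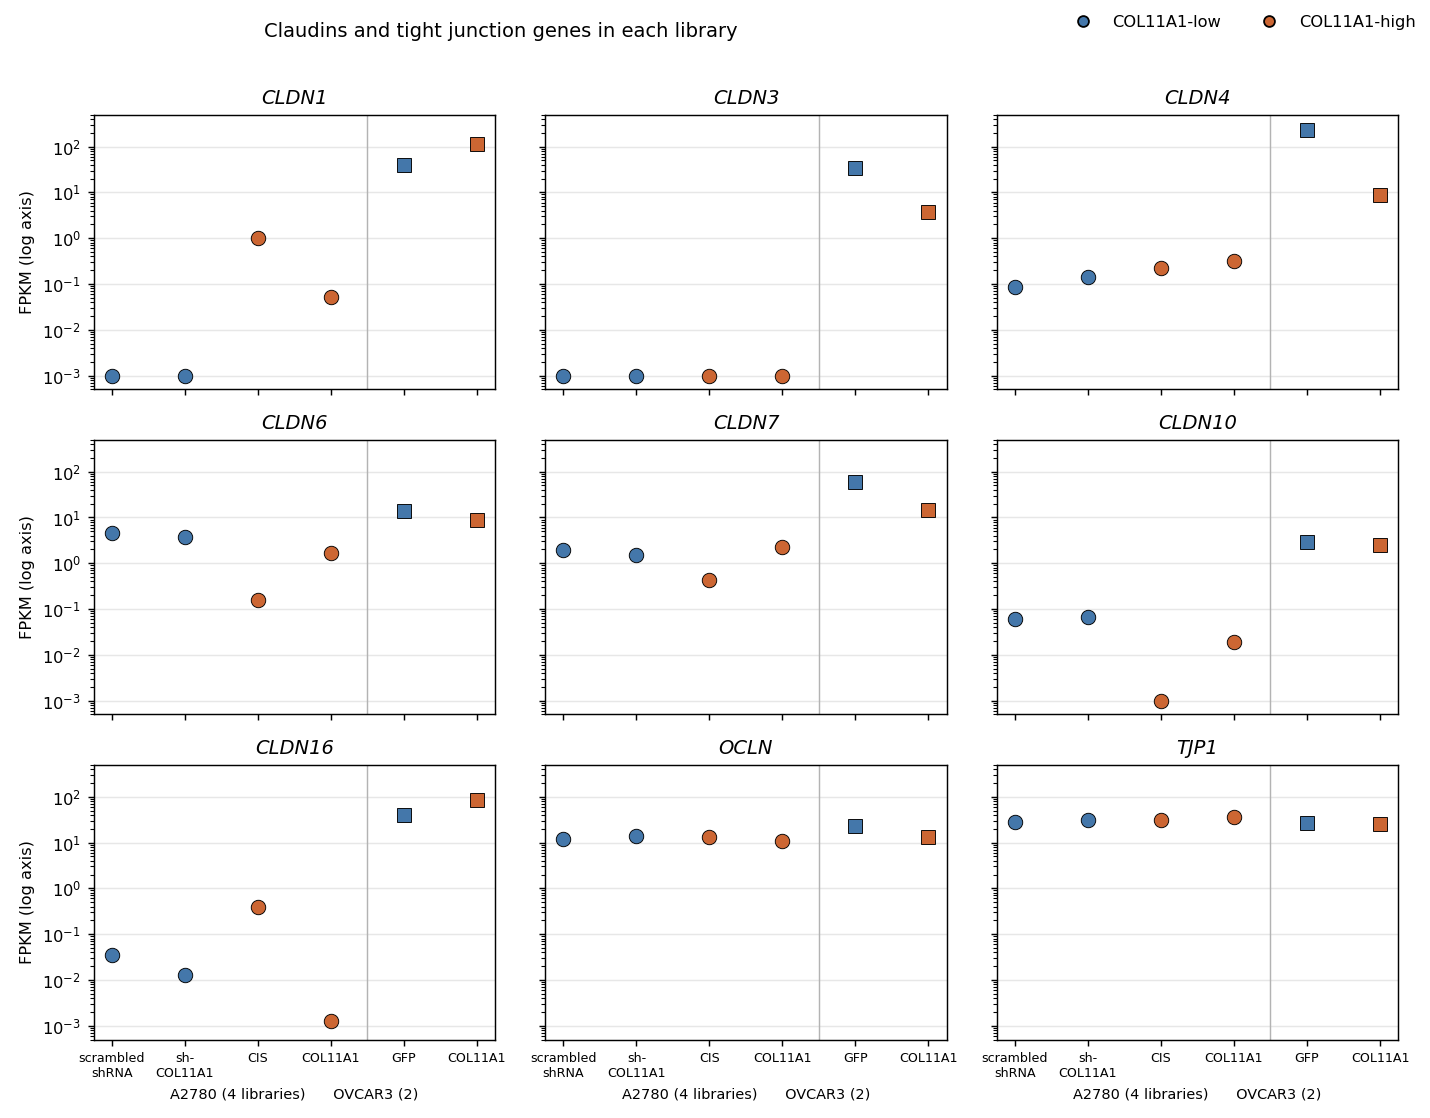
FPKM of the 9 members in each library on a log axis, circles for the 4 A2780 and squares for the 2 OVCAR3 libraries, blue for COL11A1-low and orange for COL11A1-high; points at 0.001 are at the table's lowest value, and each point is a single library with no error. CLDN4 is at 228 and 8.84 in the OVCAR3 libraries and at or under 0.320 in A2780, while TJP1 stays between 25.4 and 35.2.

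Ordered by level, OVCAR3-GFP held CLDN4, CLDN7, CLDN1, CLDN16, CLDN3, TJP1, OCLN, CLDN6 and CLDN10. CLDN1 and CLDN16 were almost equal there. OVCAR3-COL11A1 held CLDN1, CLDN16, TJP1, CLDN7, OCLN, CLDN4, CLDN6, CLDN3 and CLDN10, so that CLDN4 went from the first place to the sixth. In A2780, TJP1 was at 31.1 ± 3.17 FPKM (SD over 4 different cultures) and OCLN at 12.4 ± 1.38 FPKM, with no overlap. CLDN6, at 2.55 ± 2.0 FPKM, and CLDN7, at 1.54 ± 0.798 FPKM, overlapped, and the other 5 members stayed under 1 FPKM in all 4 libraries.

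The make-up of the whole claudin family was set out over the 23 claudins in the table. Their FPKM summed to between 34.7 and 36.1 in the A2780 libraries, 450 in OVCAR3-GFP and 274 in OVCAR3-COL11A1. In A2780 the leading claudin was CLDN12, which is no member, with 45.3% to 56.3% of the sum. In OVCAR3-GFP the leading claudin was CLDN4 with 50.6%, and in OVCAR3-COL11A1 it was CLDN1 with 41.7%, followed by CLDN16 with 31.1%. CLDN3, CLDN4 and CLDN7 together made up 71.6% of the claudin sum in OVCAR3-GFP and 10.0% in OVCAR3-COL11A1. CLDN1 and CLDN16 together made up 17.8% and 72.8%. These are shares of single libraries and carry no error.

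**Figure D3:**
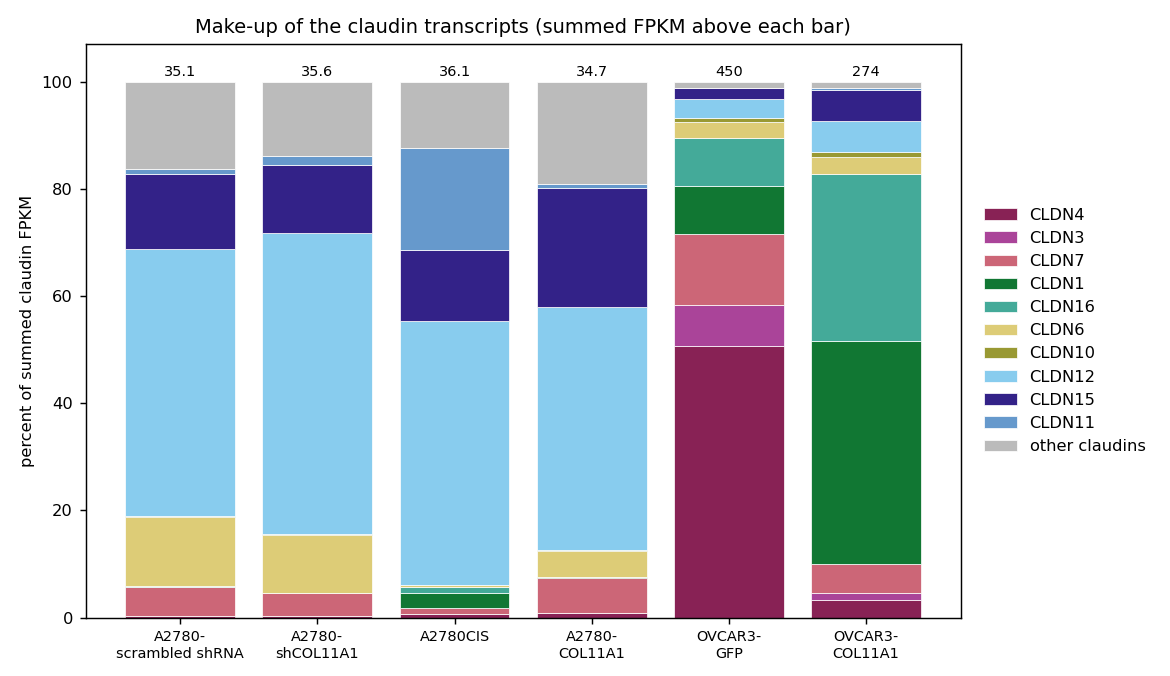
Share of each claudin in the summed FPKM of 23 claudins, in percent, for each single library, with the sum in FPKM above the bar. CLDN4 takes 50.6% of the bar of OVCAR3-GFP, and CLDN1 with CLDN16 takes 72.8% of that of OVCAR3-COL11A1, while CLDN12 leads in the 4 A2780 libraries.

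Other claudins that reached 1 FPKM in some library showed their own patterns. CLDN12 was between 15.7 and 20.0 FPKM in all 6 libraries. CLDN15, which forms a cation pore in the gut, was at 4.48 to 7.71 FPKM in A2780 and at 9.65 and 16.0 FPKM in OVCAR3-GFP and OVCAR3-COL11A1. CLDN11, the claudin of myelin and Sertoli cell junctions, was at 6.87 FPKM in A2780CIS and at most 0.693 FPKM elsewhere. CLDN8 and CLDN17 were listed at 0.001 in A2780CIS, whereas the other A2780 libraries held 1.40 to 2.24 FPKM of CLDN8 and 0.442 to 1.72 FPKM of CLDN17. CLDN22 was between 1.46 and 2.10 FPKM in every library, and CLDN23 was highest in A2780CIS, at 2.15 FPKM.

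The lines were compared first, on the scale log2(FPKM + 1), with limma fitted to 12841 genes with terms for group and line. The median difference of all tested genes, OVCAR3 minus A2780, was -0.15, and was 0.02 after scaling each library to its median. CLDN1 differed by 5.84 ± 0.37 (SE, log2, adjusted p = 0.000365), CLDN16 by 5.76 ± 0.30 (adjusted p = 0.000225) and CLDN7 by 3.68 ± 0.50 (adjusted p = 0.00295). CLDN3 differed by 3.68 ± 0.64 (adjusted p = 0.00664) and CLDN4 by 5.32 ± 1.00 (adjusted p = 0.00884), and all of these were higher in OVCAR3. Without OVCAR3-GFP the difference was 2.23 for CLDN3 and 2.95 for CLDN4.

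CLDN6 was higher in OVCAR3 by 2.01 ± 0.42 (adjusted p = 0.0128, limma). This call ended without OVCAR3-GFP (adjusted p = 0.0579), without OVCAR3-COL11A1 (0.150) and with no filter on low values (0.0597), over a range of 0.00229 to 0.150 in 14 alternatives. The CLDN4 call ended with no filter (adjusted p = 0.0549). For OCLN the difference was 0.46 ± 0.24 (adjusted p = 0.155) and for TJP1 it was -0.24 ± 0.18 (adjusted p = 0.312), neither past the threshold. Of the 8 tested members 6 were called higher in OVCAR3 and 0 lower, where 19.6% of all tested genes were called higher and 25.6% lower. CLDN1, CLDN3, CLDN4 and CLDN16 entered the test only through their OVCAR3 values, so they had to differ. Neither the count nor the adjusted p-values of these genes between the lines are read further.

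Between the COL11A1-high and COL11A1-low groups no member passed the threshold, and neither did any of the 12841 genes (0.0% called by limma at an adjusted p under 0.05, with 832 genes, 6.48%, at an unadjusted p under 0.05). CLDN6 had the smallest unadjusted p of the members, with a difference, high minus low, of -1.24 ± 0.40 on the log2 scale (SE; unadjusted p = 0.0218, adjusted p = 0.731, limma), and was the 1 member under 0.05 before adjustment. It was lower in the high group in both lines, and the difference was -0.80 without A2780CIS. CLDN1 differed by 0.85 ± 0.35 (unadjusted p = 0.0527, adjusted p = 0.731) and was higher in the high group in both lines. Among the 8 tested members, 1 was higher and 1 lower without overlap within either line, where 10.1% and 12.3% of all tested genes were.

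For the remaining members the group differences were smaller relative to their errors. CLDN4 differed by -1.39 ± 0.95, CLDN3 by -0.97 ± 0.60 and CLDN7 by -0.86 ± 0.47. CLDN16 differed by 0.49 ± 0.29, OCLN by -0.32 ± 0.22 and TJP1 by 0.09 ± 0.17. The CLDN4 and CLDN3 differences came from OVCAR3: without either of its libraries that of CLDN4 was 0.19 and that of CLDN3 was 0.00. Without either OVCAR3 library CLDN7 differed by -0.32, CLDN16 by 0.20, CLDN1 by 0.53, OCLN by -0.11 and TJP1 by 0.17. Without A2780-COL11A1 CLDN7 differed by -1.36 (unadjusted p = 0.0114, adjusted p = 0.284, limma) and TJP1 by 0.013. In that fit 1968 of 12841 tested genes had an unadjusted p under 0.05, against 832 with all libraries. TJP1 differed by 0.018 without A2780-scrambled shRNA. CLDN4 was higher in each COL11A1-high A2780 library than in the COL11A1-low ones, at levels of 2 to 12 reads.

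Whether the group difference varied with the line was tested by an interaction term in limma. The difference in OVCAR3 minus that in A2780 was -4.73 ± 0.26 for CLDN4 (adjusted p = 0.221), -2.91 ± 0.19 for CLDN3 (adjusted p = 0.241) and -1.62 ± 0.84 for CLDN7. No gene passed the threshold by limma among those tested, with 1743 genes at an unadjusted p under 0.05. With no filter on low values 1495 genes did, CLDN3 (adjusted p = 0.0109) and CLDN4 (0.0156) among them. CLDN3 and CLDN4 did not pass in the other 5 alternatives, where the adjusted p reached up to 0.408. In this model each OVCAR3 arm is 1 library, assumed to vary like A2780, so the spread comes from A2780 alone. There CLDN4 rests on 2 to 12 reads and CLDN3 was listed at 0.001 throughout, and both entered the test only through OVCAR3, so their small SEs and the adjusted p-values with no filter are not read as calls.

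The pairs of single libraries show where the members moved, with no test. From OVCAR3-GFP to OVCAR3-COL11A1 the differences in log2(FPKM + 1) were -4.54 for CLDN4, -2.91 for CLDN3, -1.94 for CLDN7, -0.74 for OCLN and -0.62 for CLDN6. They were 1.48 for CLDN1 and 1.07 for CLDN16, and CLDN10 and TJP1 stayed at -0.18 and -0.08. Of the 8 tested members 2 were at least 2-fold higher, where 6.79% of all tested genes were, and 3 were at least 2-fold lower, where 4.18% were. The median of the 8 was -0.68 and that of all tested genes 0.05. CLDN1, CLDN3, CLDN4 and CLDN16 passed the filter through these same libraries, which the counts share.

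From A2780-scrambled shRNA to A2780CIS, CLDN6 differed by -2.26 and CLDN7 by -1.03, while CLDN1 differed by 0.99 and CLDN16 by 0.42. The share of members at least 2-fold lower was 2 of 8 and higher 0 of 8, where 10.0% and 8.43% of all tested genes were. In A2780-COL11A1 only CLDN6 was at least 2-fold lower (1.91% of all genes were) and none was higher (0.849%). In A2780-shCOL11A1 no member was 2-fold higher (0.179% of genes) or lower (0.195%). These 3 comparisons share 1 control library, A2780-scrambled shRNA.

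**Figure D4:**
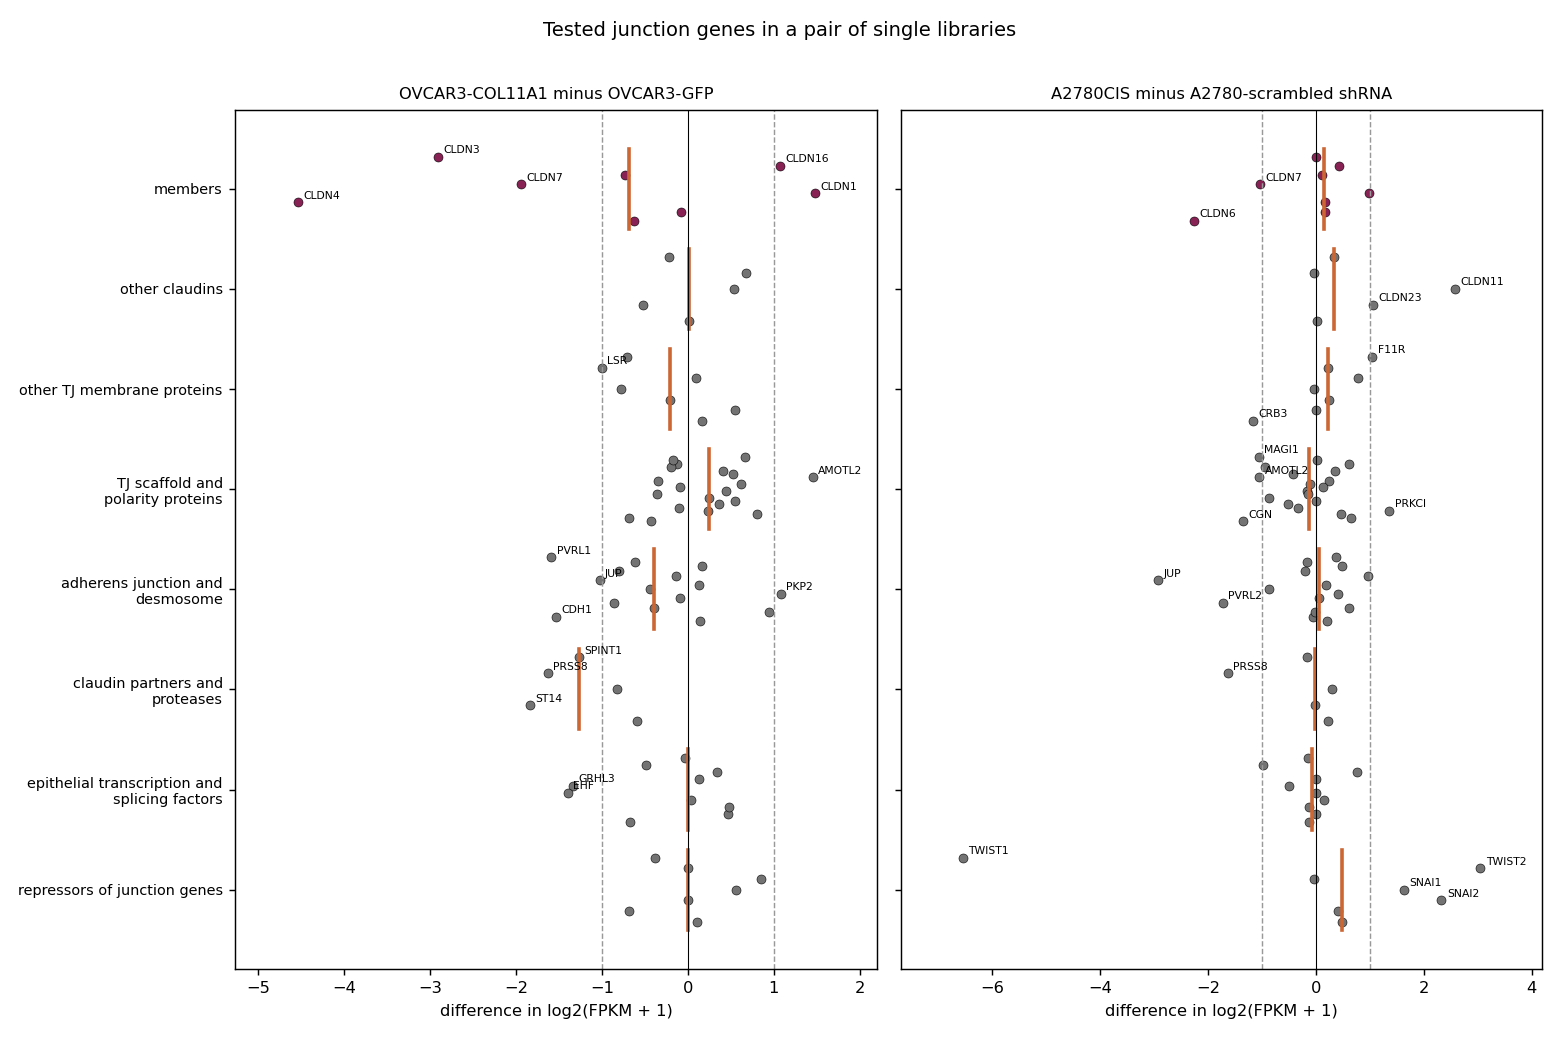
Differences in log2(FPKM + 1) of the tested members (purple) and of 7 lists of other junction genes (grey) between OVCAR3-COL11A1 and OVCAR3-GFP (left) and between A2780CIS and A2780-scrambled shRNA (right). Each point is a gene in 1 pair of libraries, the orange bar is the median of the list, dashed lines mark 2-fold, and points sit at arbitrary heights within a list; CLDN4, at -4.54, is the farthest point on the left, and genes past 2-fold are named.

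Both gene pairs that share a chromosome segment were set beside their neighbours within 300 kb. Around CLDN1 and CLDN16, the other tested genes were LEPREL1, a collagen prolyl hydroxylase, and IL1RAP, the interleukin-1 receptor accessory protein. LEPREL1 went from 3.16 FPKM in OVCAR3-GFP to 11.4 FPKM in OVCAR3-COL11A1, a difference of 1.58, and IL1RAP from 12.5 to 16.3 FPKM, a difference of 0.35. Around CLDN4, CLDN3 was the 1 gene of 12 tested neighbours at least 2-fold lower on log2(FPKM + 1), where 4.18% of all tested genes were. In FPKM alone, LIMK1 (8.30 to 3.95), DNAJC30 (1.59 to 0.351) and MLXIPL (0.393 to 0.181) were also more than 2-fold lower. The 11 that are no members differed by -0.94 to 0.46, and the nearest, WBSCR27 at 1.9 kb, by -0.20.

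**Figure D5:**
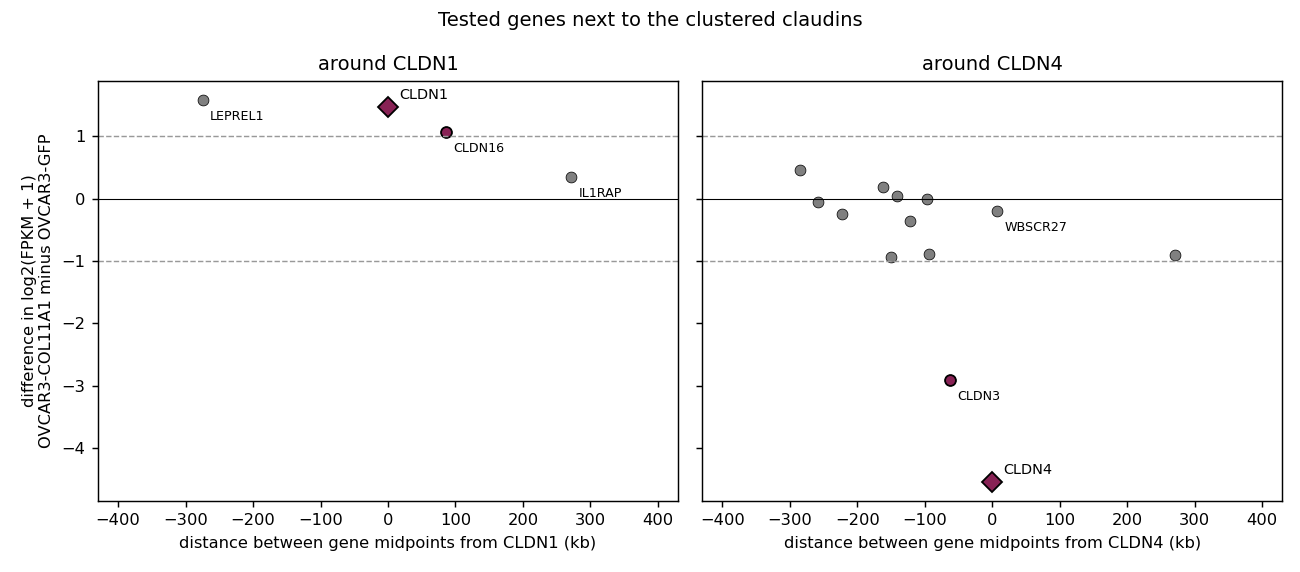
Difference in log2(FPKM + 1), OVCAR3-COL11A1 minus OVCAR3-GFP, of tested genes within 300 kb of CLDN1 (left) and CLDN4 (right), by the distance between gene midpoints in kb. Diamonds are CLDN1 and CLDN4 themselves, purple circles the neighbouring members CLDN16 and CLDN3, grey circles other genes, dashed lines 2-fold; the 11 other genes around CLDN4 lie between -0.94 and 0.46.

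The genes whose pattern over the 6 libraries was most like that of each member were ranked by Pearson's r of log2(FPKM + 1), as a description, among 9733 genes that varied. The points share 2 lines, so genes that merely differ between the lines reach high values. CLDN3 and CLDN4 followed each other with r of 0.999, and FGFBP1, a secreted carrier of fibroblast growth factor, was most like both (r = 0.999). FGFBP1 was at 10.7 and 1.77 FPKM in OVCAR3-GFP and OVCAR3-COL11A1 and at most 0.0793 FPKM in A2780. BDH1 came after them for CLDN3. CLDN1 and CLDN16 had r of 0.997 with each other, but 1099 and 1151 genes reached 0.95 with them, against 143 for CLDN4 and 175 for CLDN3.

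Nearest to CLDN1 were SAMD12, KCTD12 and ACSS3, and nearest to CLDN16 were LIFR, EVA1A and RELN. CLDN7 was most like PLD3, AKT2 and RER1, and CLDN6 most like UCK1, PIK3R3 and PGS1. OCLN was most like RAP2B, THEMIS2 and ANGPTL2, with 8 genes at 0.95 or above. TJP1 was most like C11orf71, LINC00381 and TFDP2, with 2 genes at 0.95 or above.

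Other junction genes were read from lists, on the same tests. Of 7 tested membrane proteins of the tight junction other than claudins, 6 were called higher in OVCAR3 and 1 lower. Among all tested genes 19.6% and 25.6% were. Of the 7, 2 were under 1 FPKM in every A2780 library, and CRB3 had an A2780 mean of 0.953 FPKM. These genes entered the test only through OVCAR3. MARVELD2, which encodes tricellulin of the corners between 3 cells, was at 12 and 18.1 FPKM in OVCAR3-GFP and OVCAR3-COL11A1 and at most 0.0450 FPKM in A2780. JAM3, a junctional adhesion molecule, was lower in OVCAR3 by 4.67 on the log2 scale: it was at 26.8 to 31.9 FPKM in A2780 and at most 0.253 FPKM in OVCAR3. LSR, which brings tricellulin to those corners, went from 198 to 98.5 FPKM between the OVCAR3 libraries. CRB3, CXADR, F11R and MARVELD3 were the other genes called higher in OVCAR3.

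Of 20 tested scaffold and polarity genes, 9 were called higher and 3 lower in OVCAR3, where 19.6% and 25.6% of all tested genes were. Of the 20, 1 was under 1 FPKM in every A2780 library, and MAGI3 had an A2780 mean of 0.847 FPKM. Both entered the test only through OVCAR3. PRKCI, an atypical protein kinase C of the polarity complex, was at 77.9 and 92.2 FPKM in OVCAR3 against 11.8 to 32.1 FPKM in A2780. ARHGEF2, a junction-bound activator of RhoA, was at 6.71 and 3.82 FPKM in OVCAR3 and at 58.8 to 97.2 FPKM in A2780. AMOTL2, an angiomotin that binds YAP, was the 1 gene of this list at least 2-fold higher in OVCAR3-COL11A1, at 212 FPKM against 76.7, and none was lower. Among all tested genes 6.79% were at least 2-fold higher and 4.18% lower. In A2780CIS, CGN, the junction protein cingulin, was at 1.37 FPKM, against 4.06 to 5.10 FPKM in the other A2780 libraries.

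All 5 tested claudin partners and proteases were called higher in OVCAR3, where 19.6% of all tested genes were. Of the 5, 3 were under 1 FPKM in every A2780 library, and SPINT2 had an A2780 mean of 0.782 FPKM. These genes entered the test only through OVCAR3. Between the OVCAR3 libraries 3 of the 5 were at least 2-fold lower with COL11A1, where 4.18% of all tested genes were, and the filter used these same libraries. ST14 (matriptase) went from 30.3 to 7.75 FPKM and PRSS8 (prostasin), another membrane protease, from 44.7 to 13.7 FPKM. SPINT1, an inhibitor of matriptase, went from 53.4 to 21.7 FPKM. EPCAM, at 206 and 136 FPKM, and SPINT2 were less than 2-fold lower. PRSS8 was also lower in the COL11A1-high A2780 libraries, at 0.316 and 1.12 FPKM against 3.07 and 2.64 FPKM (group difference -1.35, adjusted p = 0.731, limma).

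Of 15 tested adherens junction and desmosome genes, 9 were called higher in OVCAR3 and 0 lower (19.6% and 25.6% of all tested genes), and 6 of the 15 entered the test only through OVCAR3. CDH1 (E-cadherin) went from 48.2 FPKM in OVCAR3-GFP to 16.0 FPKM in OVCAR3-COL11A1, PVRL1 (nectin-1) from 5.58 to 1.19 FPKM and JUP (plakoglobin) from 109 to 52.8 FPKM. PKP2, a desmosome plaque protein, went the other way, from 13.5 to 29.7 FPKM. Of the 15, CDH1, PVRL1 and JUP were at least 2-fold lower and PKP2 higher, where 4.18% and 6.79% of all tested genes were. In A2780CIS, JUP was at 4.79 FPKM against 25.1 to 43.0 FPKM in the other A2780 libraries.

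Of 10 tested epithelial transcription and splicing factors, 9 were called higher in OVCAR3, where 19.6% of all tested genes were. Of the 10, 8 were under 1 FPKM in every A2780 library, and ELF3 had an A2780 mean of 0.672 FPKM. These genes entered the test through OVCAR3 alone. GRHL2, which activates Cldn4 in mouse epithelia, was at 14.1 and 19.8 FPKM in OVCAR3-GFP and OVCAR3-COL11A1 and listed at 0.001 in every A2780 library. ESRP1, an epithelial splicing factor, was at 113 and 111 FPKM in OVCAR3. EHF, an epithelial ETS factor, went from 41.9 to 15.3 FPKM, and GRHL3 from 3.39 to 0.744 FPKM. These 2 were the genes of the list at least 2-fold lower with COL11A1, where 4.18% of all tested genes were. The part of these factors in the claudin levels was not tested.

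Of 7 tested repressors of junction genes, 3 were called lower in OVCAR3 and 0 higher, where 25.6% and 19.6% of all tested genes were. ZEB1 was at 10.1 to 15.9 FPKM in A2780 and at 0.0214 and 0.0977 FPKM in OVCAR3-GFP and OVCAR3-COL11A1. SNAI2 was listed at 0.001 in both OVCAR3 libraries, and SNAI1 was at 3.30 and 5.35 FPKM. In A2780CIS, where CLDN6 and CLDN7 were lowest, SNAI2 was at 11.6 FPKM, TWIST2 at 7.29 and SNAI1 at 3.66, above the other A2780 libraries, while TWIST1 was at 0.751 FPKM against 104 to 162; their part in the claudin levels was not tested. On log2(FPKM + 1) no repressor was at least 2-fold higher or lower between the OVCAR3 libraries, where 6.79% and 4.18% of all tested genes were. In FPKM alone, TCF4 was at 2.08 in OVCAR3-GFP and 4.55 in OVCAR3-COL11A1, a ratio of 2.19. The ratio for ZEB1 was 4.56, at the low values given above.

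Some markers moved with the differences between the OVCAR3 libraries. The 9 ovarian carcinoma and epithelial markers summed to 2732 FPKM in OVCAR3-GFP and 1515 FPKM in OVCAR3-COL11A1. KRT8 went from 1247 to 565 FPKM and KRT18 from 726 to 297 FPKM, while KRT7 was at 393 and 430 FPKM and WT1 at 21.3 and 18.0 FPKM. The 4 mesenchymal markers summed to 14 and 16.0 FPKM, with FN1 (fibronectin) at 0.603 and 3.97 FPKM, CDH2 (N-cadherin) at 7.30 and 8.68 FPKM, VIM (vimentin) at 6.07 and 3.25 FPKM and ZEB1 as given above, and the 5 fibroblast markers summed to 4.42 and 8.09 FPKM. OVCAR3-COL11A1 was also the shallowest library. Between A2780-scrambled shRNA and A2780CIS, the mesenchymal markers summed to 732 and 3919 FPKM, with VIM at 720 and 3897 FPKM and CDH2 at 0.920 and 5.94 FPKM. KRT18 was at 4.41 and 44.8 FPKM there, and COL3A1, a fibroblast marker, at 147 and 548 FPKM. Some markers of the same lists were lower in A2780CIS. FN1 went from 0.376 to 0.168 FPKM, FOLR1, a carcinoma marker, from 4.22 to 0.001, and COL1A1 from 3.55 to 0.688. Of the other fibroblast markers, LUM and PDGFRB were also lower there, and DCN was higher, at 1.33 against 0.390 FPKM. The part of these markers in the claudin differences was not tested.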

How the data were processed

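Poly-A RNA from 6 cultures was sequenced with a stranded kit as single-end reads, per the labels' protocols. The deposited table gives FPKM per gene and library, per the file headers; its unit was recorded as another unit ("other") because 1.09% of its deposited cells carry a status word and no value. GRCh38, RSEM 1.2.25 and STAR 2.5.0 are named in the submitters' processing notes, but the loci in the table are GRCh37 and its layout is that of Cufflinks, so the program behind the values is unsettled; whether counting used strand is not given in the sources used here. Positions are GRCh37 as deposited, and promoter windows are GRCh38.p14 from RefSeq; none was converted.

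From 25275 entries, 1304 off the main chromosomes, 240 without numbers, 28 with names turned into dates and 306 names with several loci were left out, leaving 23145 genes. Values were used as log2(FPKM + 1). The 12841 genes averaging 1 FPKM or more were tested with limma 3.58.1 (R 4.3.3; group and line terms, intensity trend, two-sided, Benjamini-Hochberg at 5%), and a group by line term was tested apart. The fit was tested on simulated data. Pairs of single libraries have no test; "2-fold" means a difference of at least 1 on that scale. P-values measure the spread between cultures that differ in construct or drug history. A fold on log2(FPKM + 1) understates changes of low genes.

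Depth is unknown in absolute terms. Relative depth, and the reads behind CLDN4, CLDN6 and CLDN10, were estimated from the whole steps between low values (tolerance 0.05 of a step), so read numbers are approximate and no interval is given. The members, lists and tests were chosen with earlier results of these data known. The rule for named genes took all members, other claudins reaching 1 FPKM, up to 4 genes per list by line and 4 by group difference, the 3 genes most like each tested member, and COL11A1. Genes named for the pairs beyond it (such as F11R, PKP2 and KRT8), and the choice of promoters shown, followed their values. Alternatives were the pseudocount, the filter, scaling, the variance trend, the model terms, the control and leaving out each library. Some genes of the lists are not reported here and were left out of the counts of their lists. Tables were made with Python 3.11.15 and pandas 2.3.3.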

Additional observations from a re-analysis of the deposited data

Results flagged for a closer look

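Within the 4 A2780 libraries, each of 52 genes was examined for a library far from the other 3, by its gap to the nearest one over the whole range. For 12 genes that share exceeded the 95% critical value of Dixon's test, and chance flags about 1 in 20 groups of unselected values. That rate is not the number expected here, since some of these genes were named for their group differences, to which A2780CIS contributes, and several values lie at the floor of the table. A2780CIS was the library in 9 of them and was the highest each time. The ratio was taken on FPKM, where a library far below others that are themselves spread out is not flagged. In A2780CIS, TWIST1 was at 0.751 FPKM against 104 to 162 and JUP at 4.79 against 25.1 to 43.0, and neither was flagged.

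Among members, CLDN1 was at 0.987 FPKM in A2780CIS against at most 0.0532 in the other 3, and CLDN16 at 0.388 against at most 0.0342. Among other claudins, CLDN11 was at 6.87 FPKM in A2780CIS, and CLDN15 was at 7.71 FPKM in A2780-COL11A1 against 4.48 to 4.93.

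Among factors that act on junction genes, SNAI2 was at 11.6 FPKM, SNAI1 at 3.66, TWIST2 at 7.29 and KLF4, an epithelial transcription factor, at 0.738 FPKM in A2780CIS. ARHGEF2 was at 97.2 FPKM there against 58.8 to 64.8. COL11A1 itself, the gene that defines the groups, was at 297 FPKM in A2780CIS against 0.670 to 8.17.

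In A2780-shCOL11A1, AMOT, an angiomotin, was at 1.43 FPKM against at most 1.12. In A2780-COL11A1, MARVELD2 was at 0.0450 FPKM with the other 3 listed at 0.001, near the floor of the table.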

How the results depend on the processing

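No gene was called between the groups in any of 14 alternatives. The CLDN4 group difference was 0.19 without either OVCAR3 library and -1.87 to -1.81 without any other. When each library was left out in turn, the CLDN3 difference ran from -1.25 to 0.00. With the overexpression libraries and 1 control per line only, CLDN4 differed by -2.129 and CLDN3 by -1.455. The number of genes called between the lines was 5810 and ran from 3181 without OVCAR3-COL11A1 to 7346 without A2780CIS; leaving out A2780-scrambled shRNA gave 3464, A2780-shCOL11A1 3804 and OVCAR3-GFP 3850. With no filter on low values 1495 genes were called for the group by line term, and 0 in the other 5 alternatives. The interaction values of members were added after seeing the data; that of CLDN1, 0.95, was -0.51 with a pseudocount of 0.1. CLDN1 was listed at 0.001 in both COL11A1-low A2780 libraries, so its differences within A2780 depend on the pseudocount. The cause of the CLDN1 levels was not tested. Of 112 alternative values of the members' group differences 110 kept their side and direction (or went to 0), and of 112 line differences 108 did. Pairs have no test, so each alternative pair difference was set against the gene's own spread (residual SD) in the limma fit. Of 122 such values 108 moved by less than that spread and 14 did not. The spread takes in the misfit of the same pairs, at 1.58 for CLDN4 and 0.97 for CLDN3. For CLDN3, listed at 0.001 throughout A2780, it comes from the OVCAR3 difference alone. The counts therefore do not show that these pair differences are stable. With a pseudocount of 0.1, A2780CIS minus A2780-scrambled shRNA became -4.18 for CLDN6, -1.92 for CLDN7, 3.43 for CLDN1 and 1.86 for CLDN16. No paired analysis was possible because the replicate numbers only name the libraries. Low read numbers limit CLDN4 and CLDN10 in A2780 and CLDN6 in A2780CIS, and 1 library per culture limits every pair.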
